A study of Homo sapiens with 20 samples.

Results

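The ATAC-seq peaks of chromosomes 7 and 20 in SW872 cells made up 166725 of the 1407450 peaks that the 7 lists held in all (11.8%), 103260 on chromosome 7 and 63465 on chromosome 20. They were every peak whose chromosome was 7 or 20, counted in bins of 1 Mb by the position of the summit. A peak was called weak where its summit −log10 p was under 5 and strong otherwise. Both chromosomes were chosen by their density of weak peaks in these same lists, so that density is given as a description and was not tested. SW872 is an established human liposarcoma line, and all groups were that line after stable transduction. One list was given for each of 7 vectors: empty vector (EV), TAZ4SA and YAP5SA (constitutively active TAZ and YAP), full-length CAMTA1, full-length TFE3, and 2 fusion proteins, TAZ-CAMTA1 and YAP-TFE3. The titles of the YAP-TFE3 libraries name the fusion Yap5SA-TFE3. There were 3 libraries for each vector except TFE3, which had 2, and the third EV library was titled as a redo. By the study's methods, replicate lines were transduced and selected separately. The methods state that peaks were called on each replicate, but 1 list per vector was used here, with no value per library and no account of how replicates entered it, so a difference between lists has no replicate check, and intervals below cover counting error only.

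ATAC-seq marks open chromatin with fragments cut by the transposase Tn5, and fragments also arise at a low rate from closed chromatin. Open sites crowd into gene-rich, GC-rich bands and thin out in gene-poor bands, so peak density follows bands along any human chromosome. Extra copies of a chromosome give more fragments at every site and bring more faint sites over a caller's threshold, and liposarcoma lines often carry gained segments. The short arm of chromosome 7 carries the HOXA cluster of body-plan transcription factors and MAFK, a small MAF factor, and its long arm carries MET, a receptor tyrosine kinase, and EZH2, a histone methyltransferase. The long arm of chromosome 20 carries SRC, a kinase, TOP1, a topoisomerase, and AURKA, a mitotic kinase. These genes were not placed in the segments described here, since no annotation of the lists' genome build (hg19) was used. DNA copy number was not measured in these files, and copy number and band-wise accessibility cannot be told apart from peak counts.

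Chromosome 20 had the highest weak-peak density of the 22 autosomes in each of the 7 lists, and chromosome 7 was moderately dense. The median number of weak peaks per bin on chromosome 20 was 79.5 in EV, 64 in TAZ4SA, 103.5 in YAP5SA, 97 in CAMTA1, 61 in TFE3, 100.5 in TAZ-CAMTA1 and 98.5 in YAP-TFE3. Over the bins of the other 20 autosomes the medians ran from 19 in TAZ4SA to 36 in TAZ-CAMTA1. The ratio of chromosome 20 to those autosomes was therefore 3.46 in EV, 3.37 in TAZ4SA, 3.14 in YAP5SA, 3.03 in CAMTA1, 2.90 in YAP-TFE3, 2.79 in TAZ-CAMTA1 and 2.54 in TFE3. The next autosome by median ratio, chromosome 22, reached 1.79, and the highest ratio of any other autosome in a single list was 2.53, for chromosome 5 in TAZ4SA.

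On chromosome 7 the median number of weak peaks per bin was 33 in EV, 32 in TAZ4SA, 44 in YAP5SA, 45 in CAMTA1, 32 in TFE3, 47 in TAZ-CAMTA1 and 50 in YAP-TFE3. Its ratio to the other autosomes had a median of 1.41 and ran from 1.31 in TAZ-CAMTA1 to 1.68 in TAZ4SA. That put chromosome 7 between rank 5 and rank 9 of the autosomes, depending on the list.

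**Figure D1:**
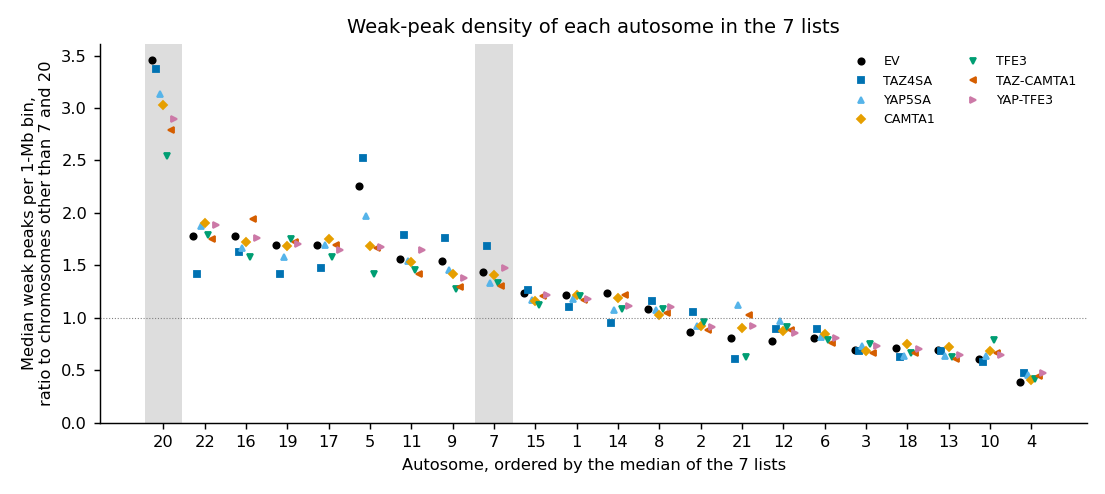
Median number of weak peaks per 1-Mb bin on each autosome, divided by the median over the autosomes other than 7 and 20; each point is 1 list, and the shaded columns are chromosomes 20 and 7. Chromosome 20 sits at 2.54 to 3.46 in every list, and chromosome 7 at 1.31 to 1.68.

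Strong peaks were dense on chromosome 20 as well. Their ratio to the other autosomes was 2.22 to 2.68 on chromosome 20, again the highest of the autosomes in all 7 lists, and 1.16 on chromosome 7 by the median of the lists. Weak peaks were a larger share of all peaks on both chromosomes than elsewhere. On chromosome 7 the weak share was 62.8% in EV (95% Wilson interval 61.9 to 63.6), which was 5.43 percentage points above the other autosomes in that list. The lowest share there was 57.2% in YAP-TFE3 (56.5 to 58.0), still 5.22 points above. On chromosome 20 it ran from 63.0% in EV (62.0 to 64.1) to 55.9% in YAP-TFE3 (54.9 to 56.9), and the excess was smallest in TFE3, at 2.57 points, and largest in TAZ4SA, at 7.52 points. The other autosomes held 57.4% weak peaks in EV and 52.0% in YAP-TFE3, so EV was the highest list and YAP-TFE3 the lowest both on and off these chromosomes. Chromosomes 13 and 5 had still higher median weak shares, of 64.3% and 61.7%.

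Peaks close to the threshold were evenly split on the 2 chromosomes: over all lists, 3372 peaks had a −log10 p from 4.9 to 5 and 3197 from 5 to 5.1. The highest weak value was 4.99961, and the lowest strong value was 5.00022.

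Dense bins were common on both chromosomes. A bin was counted as dense in a list where it held at least 1.5 times the autosomal median of weak peaks, which 35.9% of all 2652 usable autosomal bins did in EV, 35.9% in TAZ4SA, 32.7% in YAP5SA, 34.5% in CAMTA1, 33.0% in TFE3, 35.0% in TAZ-CAMTA1 and 32.3% in YAP-TFE3. Of the 60 usable bins of chromosome 20, between 40 (TFE3) and 49 (TAZ4SA) were dense. Of the 157 usable bins of chromosome 7, between 69 (TFE3) and 83 (TAZ4SA) were dense. Both chromosomes were chosen for their density, so nothing is read from these counts beyond their size.

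Along chromosome 7 the weak-peak density went up and down in 9 blocks with 8 steps, while chromosome 20 had 3 blocks with 2 steps. The latter count depended on bin size, with 7 steps in 500-kb bins and none in 2-Mb bins. On chromosome 7 there were 11 steps in 500-kb bins and 8 in 2-Mb bins. Blocks were found by least-squares partition of a profile, which was the mean over the 7 lists of the log2 ratio of weak peaks in a bin to the autosomal median of that list, with 1 peak added to each. A step was kept where the neighbouring block medians differed by at least 1.5-fold. The same procedure found steps at 4.45% of all neighbouring bin pairs on the autosomes. Per 100 usable bins there were 5.1 steps on chromosome 7 and 3.33 on chromosome 20, against 4.39 on the other 20 autosomes, of which 19 had at least 1 step. The number of steps on these chromosomes was thus near the autosomal background.

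**Figure D2:**
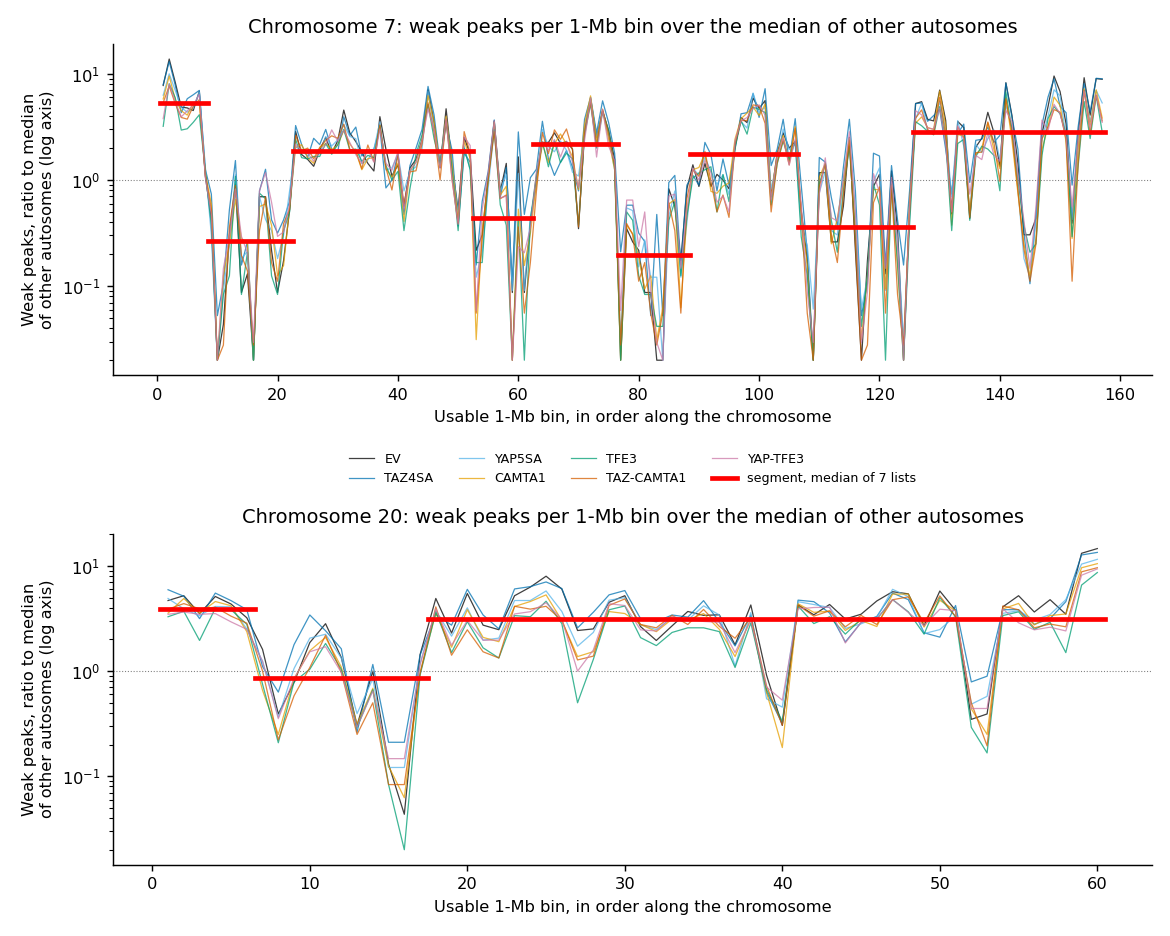
Weak peaks in each usable 1-Mb bin as a ratio to the median of the other autosomes (log axis), in order along chromosome 7 (top) and chromosome 20 (bottom); thin lines are the 7 lists, red bars are the median over the lists of each block's ratio, and bins with no weak peak are drawn at 0.02. Chromosome 7 alternates between dense and sparse blocks. By block, chromosome 20 is dense except for its second block, where the median ratio was 0.853. Outside that block, its bins starting at 40, 41, 53 and 54 Mb lie below the median of the other autosomes in every list.

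The blocks of chromosome 7 were as follows (hg19). The first, chr7:1-8000000 at the start of the short arm, was the densest block of either chromosome by the median of the lists. Its median bin held 135 weak peaks in EV, 127 in TAZ4SA, 183.5 in YAP5SA, 171 in CAMTA1, 80.5 in TFE3, 184 in TAZ-CAMTA1 and 163 in YAP-TFE3, or 3.35 to 6.68 times the other autosomes. TFE3 was the lowest of the lists there and TAZ4SA the highest by ratio.

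The second block, chr7:8000001-22000000, was sparse. The median bin fell to 4.5 weak peaks in EV, 8 in TAZ4SA, 9 in YAP5SA, 8.5 in CAMTA1, 4 in TFE3, 9.5 in TAZ-CAMTA1 and 10.5 in YAP-TFE3. The step at 8 Mb was the largest on the chromosome, 16.3-fold in the profile and 14.2-fold (TAZ4SA) to 24.7-fold (EV) within single lists. The lowest list in the first block, at 80.5, stood above the highest in the second, at 10.5, and each list run alone placed this step at 7 or 8 Mb.

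The third block, chr7:22000001-52000000, spanned 30 Mb of the short arm at 1.69 to 1.95 times the other autosomes. The fourth, chr7:52000001-64000000, lay around the centromere, with 2 bins from 59 to 61 Mb that held no peak in any list. Its ratio ran from 0.319 in TAZ-CAMTA1 and 0.396 in TFE3 to 0.587 in EV and 0.868 in TAZ4SA. The steps on either side of it, at 52 Mb and 64 Mb, were found in 5 of the 7 lists run alone and were not found in EV or TAZ4SA.

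The long arm repeated the pattern. The fifth block, chr7:64000001-78000000, had ratios of 1.84 (TAZ4SA) to 2.57 (TAZ-CAMTA1), and the sixth, chr7:78000001-90000000, was the sparsest of either chromosome by the median of the lists, at 0.125 (TFE3) to 0.395 (TAZ4SA). The 10.2-fold fall between them, at 78 Mb, was placed at that same bin by every list alone. The seventh block, chr7:90000001-108000000, rose to 1.48 to 1.95, and the eighth, chr7:108000001-127000000, fell to 0.292 in TFE3, 0.50 in YAP-TFE3 and 0.789 in TAZ4SA, the last again apart from the rest. The ninth, chr7:127000001-159000000, took in the end of the long arm with 19600 weak and 11879 strong peaks over all lists. Its median bin held 82.5 weak peaks in EV, 63.5 in TAZ4SA, 96.5 in YAP5SA, 84.5 in CAMTA1, 57.5 in TFE3, 95.5 in TAZ-CAMTA1 and 97 in YAP-TFE3. As a ratio to the other autosomes, EV was the highest in this block at 3.59 and TFE3 the lowest at 2.40. The 7.05-fold rise at 127 Mb was placed at that bin by all 7 lists.

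On chromosome 20 the first block, chr20:1-6000000 on the short arm, held a median of 104 weak peaks per bin in EV, 93.5 in TAZ4SA, 132 in YAP5SA, 124 in CAMTA1, 84 in TFE3, 140.5 in TAZ-CAMTA1 and 118 in YAP-TFE3. The second, chr20:6000001-17000000, held 23 in EV, 22 in TAZ4SA, 35 in YAP5SA, 22 in CAMTA1, 18 in TFE3, 21 in TAZ-CAMTA1 and 29 in YAP-TFE3. Unlike the sparse blocks of chromosome 7, which had median ratios of 0.196 to 0.441, this block stood near the level of the other autosomes, at 0.583 (TAZ-CAMTA1) to 1.16 (TAZ4SA).

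The third block, chr20:17000001-62000000, covered 45 Mb and crossed the centromere, where the bins from 27 to 29 Mb held no peak. It held 29529 weak peaks over all lists, and its ratio was 2.83 in TFE3, 3.03 in YAP-TFE3, 3.06 in TAZ-CAMTA1, 3.16 in CAMTA1, 3.42 in TAZ4SA, 3.42 in YAP5SA and 3.70 in EV. No step of 1.5-fold fell at or near the centromere. Over the bins before the centromere gap as a whole the ratio was 1.53 (TAZ-CAMTA1) to 3.16 (TAZ4SA), and after it 2.83 (TFE3) to 3.65 (EV).

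The fall at 6 Mb was 4.31-fold and the rise at 17 Mb was 3.49-fold. All 7 lists alone placed the rise at 17 Mb, and 6 of 7 the fall at 6 Mb; in TAZ4SA that fall came at 12 Mb. The largest steps of the other autosomes had a median of 13.7-fold and a range of 2.35-fold to 44.8-fold. On chromosome 20 the size and place of the largest step depended on the setting, since it became 18.3-fold at 16.5 Mb with 500-kb bins and 13.1-fold at 17 Mb when bases covered by weak peaks were used.

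Single bins gave the extremes. The bins with the highest profile on chromosome 7 were chr7:1000001-2000000, with 318 weak peaks in EV, 249 in TAZ4SA, 331 in YAP5SA, 306 in CAMTA1, 194 in TFE3, 277 in TAZ-CAMTA1 and 274 in YAP-TFE3, followed by the bins starting at 157 Mb and 155 Mb. All 3 lay in the first or last block. On chromosome 20 the top pair were the last usable bins, which started at 61 Mb and 60 Mb and held 2186 and 1951 weak peaks over the lists, and the next was the bin starting at 24 Mb, with 1091. The bin at 61 Mb had 337 weak peaks in EV, 256 in TAZ4SA, 382 in YAP5SA, 337 in CAMTA1, 208 in TFE3, 347 in TAZ-CAMTA1 and 319 in YAP-TFE3, and stood 10.2 times above the autosomal median in the profile. The densest bins of both chromosomes thus included megabases at or next to chromosome ends.

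The emptiest usable bins of chromosome 7 started at 9, 15 and 110 Mb and held 1, 2 and 3 weak peaks over all 7 lists together, with no strong peak. Those of chromosome 20 started at 15, 14 and 12 Mb and held 19, 25 and 61 weak peaks, all in the second block. No bin of chromosome 20 was as empty as the emptiest of chromosome 7.

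Strong peaks also changed across the boundaries set by weak peaks. They were not partitioned on their own, so where they would step by themselves was not examined. Across the 8 Mb boundary of chromosome 7 they fell 12.2-fold, against 16.3-fold for weak peaks, at 78 Mb 10.1-fold against 10.2-fold, and at 127 Mb they rose 5.59-fold against 7.05-fold. On chromosome 20 they fell 3.91-fold at 6 Mb and rose 3.43-fold at 17 Mb, against 4.31-fold and 3.49-fold for weak peaks. Over bins, the weak and the strong profiles had a Pearson r of 0.98 on chromosome 7 (157 bins), 0.96 on chromosome 20 (60 bins) and 0.96 on the other autosomes (2435 bins). These bins share their libraries and their sequence context, so r is a description. The steps in weak peaks were therefore, for the most part, also changes in strong peaks.

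**Figure D3:**
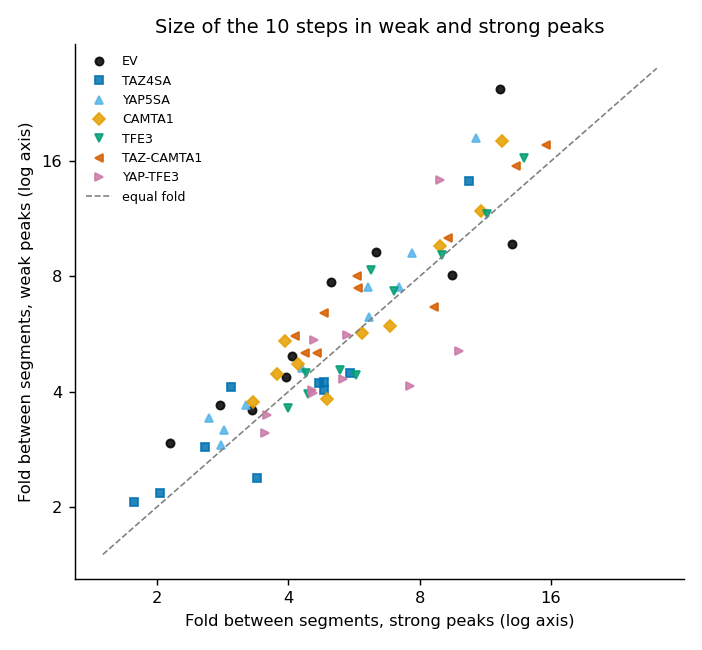
Fold between the median bins of the neighbouring blocks at each of the 10 steps, for strong peaks (x) and weak peaks (y), both on log axes, with 1 point per step and list; the dashed line marks equal folds. Points lie along the line, and the highest weak fold, 24.7 in EV, belongs to the 8 Mb step of chromosome 7, where the strong fold was 12.2.

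A profile of weak peaks per strong peak removes what the classes share. On that profile steps fell at 0.494% of neighbouring bin pairs over all autosomes, or 13 in all, of which chromosome 7 had 1, chromosome 20 none and the other autosomes 12, spread over 7 chromosomes. The step of chromosome 7 lay at 146 Mb, inside the ninth block. Beyond it, chr7:146000001-159000000 held 9286 weak and 4765 strong peaks, and its ratio was 1.80 times the autosomal median. Before it the ratio was 1.17 times the median. When smaller steps were allowed another appeared at 9 Mb, where the ratio went from 1.68 before it to 1.14 after it, so that both ends of chromosome 7 carried more weak peaks per strong peak than its interior. No step was found on chromosome 20, whose level was 1.26, or 0.336 in log2. A block holds at least 5 bins, so a shorter rise could not be found there. The bins starting at 59, 60 and 61 Mb, at its end, had log2 values of 1.16, 0.784 and 0.828. Its first bin was at 0.359, and the bin starting at 53 Mb, away from the end, was at 1.97.

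The weak share showed the same ends list by list. In chr7:146000001-159000000 it was 71.3% in EV, 67.6% in TAZ4SA, 66.2% in YAP5SA, 64.1% in CAMTA1, 64.3% in TFE3, 66.2% in TAZ-CAMTA1 and 63.1% in YAP-TFE3. On the rest of the chromosome it was 61.2%, 58.8%, 59.1%, 57.4%, 56.7%, 59.1% and 56.3% in the same order. Every list was higher beyond 146 Mb. Run alone, EV, YAP5SA and TFE3 had a weak-per-strong step on chromosome 7 and the other 4 lists had none at 1.5-fold, and whether the lists differ in this was not tested.

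The first block of chromosome 7 had weak shares of 62.0% (TFE3) to 69.6% (EV), while blocks 2 to 8 had shares of 50.3% to 60.5%, most of them with wide intervals where peaks were few. In the sixth block, for example, the share was 59.1% in EV with an interval of 50.6 to 67.1. In the third block of chromosome 20 the share was 63.8% in EV (62.6 to 64.9) and 56.5% in YAP-TFE3 (55.5 to 57.6), again the highest and the lowest of the lists.

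**Figure D4:**
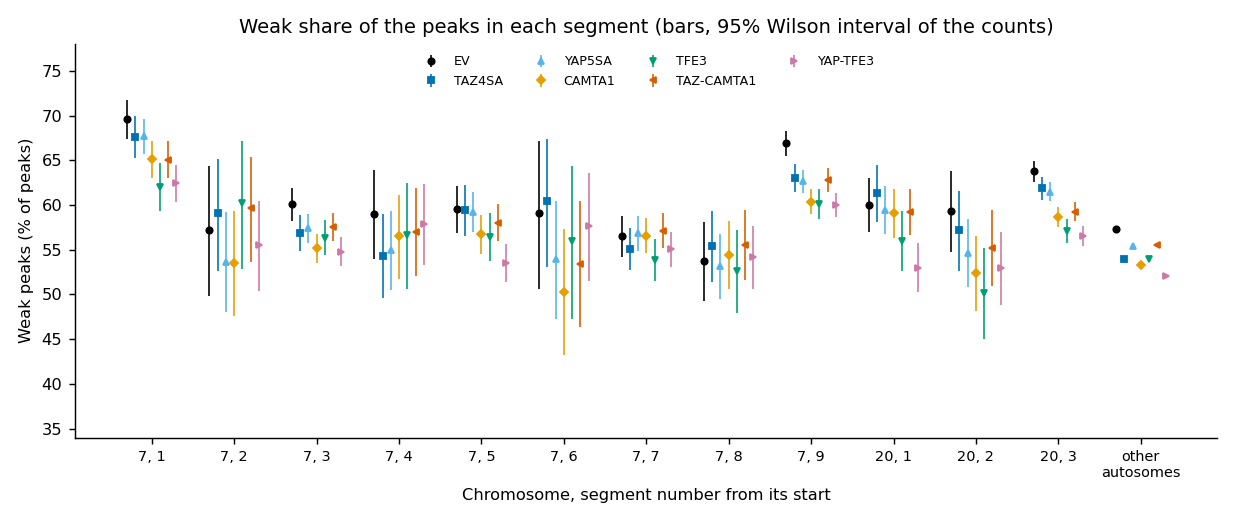
Weak peaks as a percent of all peaks in each block of chromosomes 7 and 20, numbered from the chromosome start, and on the other autosomes; points are lists and bars are 95% Wilson intervals of the counts. Blocks 1, 3, 5 and 9 of chromosome 7 and blocks 1 and 3 of chromosome 20 sit above the other autosomes in every list. Some bars of block 5 of chromosome 7 and block 1 of chromosome 20 reach the share of the other autosomes, and sparse blocks have wide bars.

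Against EV, the TAZ4SA and YAP-TFE3 lists were higher in the second, sixth and eighth blocks of chromosome 7, which were sparse. Weak peaks were taken as a share of all weak autosomal peaks of the same list. That scales for the size of the list but not for the depth of its libraries, which is unknown. All 6 comparisons share the EV list. In the second block the TAZ4SA list had 137 weak peaks and EV 99, and the ratio of the shares was 1.64 (95% counting interval 1.27 to 2.13). In the sixth block it was 1.63 (1.22 to 2.18), and in the eighth 1.53 (1.30 to 1.80). In YAP-TFE3 the ratios in these blocks were 1.67 (1.31 to 2.12), 1.51 (1.15 to 1.99) and 1.29 (1.11 to 1.51). The intervals of the other 4 lists included 1 in all 3 blocks, and the lowest of their ratios was 0.968. The fourth block, also sparse, went another way: TAZ4SA was at 1.24 (1.03 to 1.49), YAP-TFE3 at 0.927 (0.775 to 1.11), TFE3 at 0.784 (0.637 to 0.965) and TAZ-CAMTA1 at 0.751 (0.624 to 0.904).

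In the densest blocks of chromosome 7 most lists were at or below EV. In the first, the ratio was 0.751 (0.686 to 0.822) in TFE3, 0.848 in TAZ-CAMTA1, 0.871 in YAP-TFE3, 0.913 in CAMTA1, 0.959 in YAP5SA and 1.01 in TAZ4SA. In the ninth block it was 0.782 (0.739 to 0.829) in TFE3, and it ran up to 0.863 in YAP5SA among all lists except TAZ4SA, which stood at 0.956 (0.905 to 1.01). The third block was flat, with all 6 ratios from 1.01 to 1.06. In the fifth block TAZ-CAMTA1 was the highest, at 1.16 (1.06 to 1.27), and TAZ4SA the lowest, at 1.01.

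On chromosome 20 the third block had a smaller share of the weak peaks than in EV in every list: 0.948 in TAZ4SA, 0.942 in YAP5SA, 0.914 in CAMTA1, 0.903 in TAZ-CAMTA1, 0.876 in YAP-TFE3 and 0.822 (0.784 to 0.862) in TFE3. The second block split the lists, with TAZ4SA at 1.19 (1.01 to 1.41) and YAP5SA at 1.03, and CAMTA1, TFE3 and TAZ-CAMTA1 at 0.844, 0.792 and 0.789. All of these are ratios of 1 list to another, so they compare the lists and not the vectors.

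**Figure D5:**
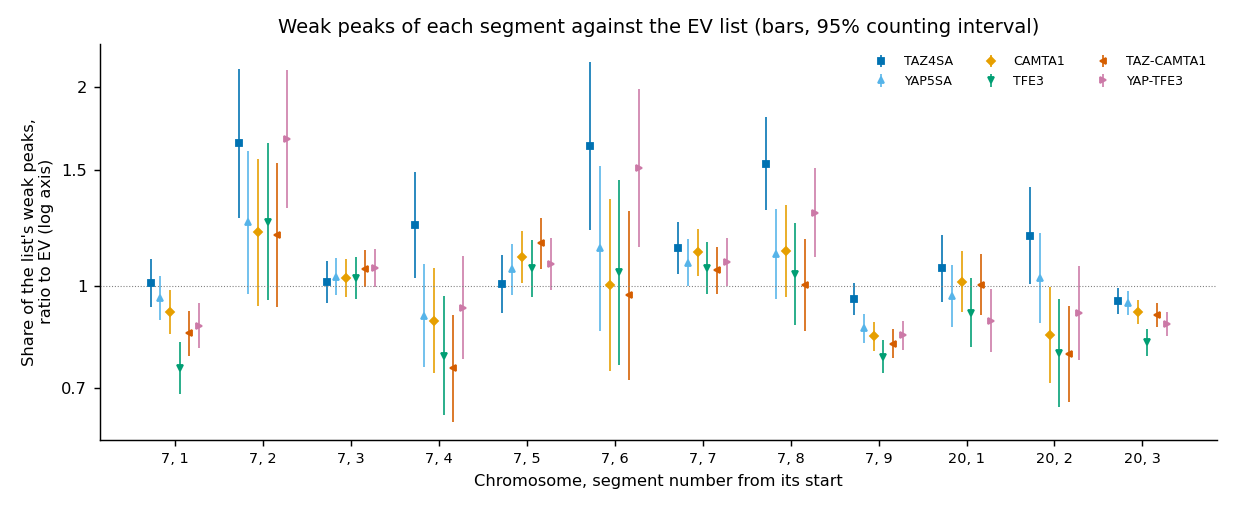
Share of a list's weak autosomal peaks in each block, as a ratio to the EV list (log axis); points are the 6 other lists and bars are 95% counting intervals. TAZ4SA and YAP-TFE3 stand above EV in the sparse second, sixth and eighth blocks of chromosome 7, and most lists stand below EV in its first and ninth blocks and in the third block of chromosome 20.

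Bin by bin, the TAZ4SA list had 41 of 157 bins of chromosome 7 at least 1.5-fold above EV and 6 at least 1.5-fold below, against 18.3% above and 10.1% below over all autosomal bins. YAP-TFE3 had 32 above and 12 below, with 22.5% and 7.32% over all autosomes, and YAP5SA 20 above and 7 below, with 15.7% and 6.79%. CAMTA1 had 15 and 9, with 15.8% and 8.75%. TFE3 had 14 above and 15 below, with 19.9% and 9.28%, and TAZ-CAMTA1 had 8 and 21, with 12.5% and 10.5%. The TAZ4SA list was thus above the background in higher bins on chromosome 7, at 26.1%, and the CAMTA1, TFE3 and TAZ-CAMTA1 lists were below it, at 9.55%, 8.92% and 5.1%.

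On chromosome 20, higher bins were few in all lists: 6 of 60 in TAZ4SA, 4 in YAP5SA, 2 in TAZ-CAMTA1, 2 in YAP-TFE3 and none in CAMTA1 or TFE3. Lower bins numbered 11 in TFE3, 9 in TAZ-CAMTA1, 6 in YAP-TFE3, 4 in CAMTA1, 3 in TAZ4SA and 2 in YAP5SA. Lower bins made up 18.3% in TFE3 and 15.0% in TAZ-CAMTA1, against 9.28% and 10.5% over all autosomal bins. YAP-TFE3 was also above its background of 7.32%, while TAZ4SA, YAP5SA and CAMTA1 were below theirs. The share of higher bins was below the background in every list.

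Bins of like density on other autosomes give a closer background. Bins were sorted by the 7-list profile into sparse (under a log2 value of −1), dense (over 1) and middle. In the 41 sparse bins of chromosome 7 the TAZ4SA list stood at 1.76 times EV by share, against 1.39 in the 737 sparse bins of the other autosomes, and YAP-TFE3 at 1.62 against 1.44. TAZ-CAMTA1 stood at 0.956 against 1.07 and TFE3 at 1.04 against 1.19. In dense bins the chromosomes were close to the rest: TAZ4SA was at 0.990 on chromosome 7 (59 bins) and 0.948 on chromosome 20 (41 bins), against 0.953 on the other autosomes (451 bins), and TFE3 at 0.869 and 0.845 against 0.877. The sparse-bin excess of TAZ4SA and YAP-TFE3 was thus not confined to chromosome 7, nor to these lists. YAP5SA stood at 1.26 both in the sparse bins of chromosome 7 and in those of the other autosomes. In the latter bins every list was above EV, with TAZ-CAMTA1 the lowest at 1.07.

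The 12 middle bins of chromosome 20 went another way than the 1247 middle bins elsewhere. TFE3 was at 0.690 times EV there with 278 weak peaks, against 1.17 elsewhere, TAZ-CAMTA1 at 0.759 against 1.12, CAMTA1 at 0.80 against 1.11 and YAP-TFE3 at 0.862 against 1.14. TAZ4SA was at 1.17 against 1.02. With 12 bins and 1 list per vector this was not tested.

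The same peaks were also described as sites. Since the chromosomes were chosen for their peak density and weak peaks, the number of sites per bin and their area are not independent of that choice, and nothing is read from them beyond their size. Overlapping peaks of the lists were merged into sites, 28465 on chromosome 7 and 17048 on chromosome 20. Sites present in all 7 lists numbered 4171 and 2507, which was 14.7% of the sites on both, against 16.4% on the other autosomes. Per bin there were 26.6 such sites on chromosome 7 and 41.8 on chromosome 20, or 1.24 and 1.95 times the other autosomes. Sites found in 1 list alone were 45.7% and 45.1% of all sites, against 42.0% elsewhere, and per bin they were 1.51 and 2.34 times as many. Both classes were thus more frequent per bin, and the ratio was larger for sites of single lists.

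The first block of chromosome 7 showed this most, with 56.9 constitutive sites per bin (2.66 times the other autosomes) and 217 sites per bin in 1 list alone (3.95 times). In its sixth block the figures were 4.75 (0.222 times) and 16.4 (0.299 times). In the third block of chromosome 20 they were 44.9 (2.10 times) and 141 (2.56 times). Of the sites in 1 list alone, YAP5SA held 24.8% on chromosome 7 and 25.3% on chromosome 20, TAZ-CAMTA1 19.7% and 21.3%, YAP-TFE3 18.1% and 14.7%, and TFE3 0.923% and 0.663%. On the other autosomes the shares were 25.0%, 22.4%, 19.3% and 0.987%, so YAP-TFE3 had a smaller share of such sites on chromosome 20 than elsewhere.

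Constitutive sites on these chromosomes had a lower median area under the −log10 p curve than those elsewhere, in every list. The median area was 211 in EV on chromosome 7 and 232 on chromosome 20, against 267 on the other autosomes, and 1129 in TAZ-CAMTA1 on chromosome 7 and 1282 on chromosome 20, against 1340. The ratio to the other autosomes ran from 0.773 to 0.844 on chromosome 7 and from 0.747 to 0.957 on chromosome 20. By block, the first of chromosome 7 was the lowest, with a median ratio of 0.631 over the lists, and its ninth followed at 0.717. The second and sixth blocks of chromosome 7, at 1.11 and 1.06, and the second of chromosome 20, at 1.09, had median ratios above 1. Dense blocks were not alike in this: the fifth of chromosome 7 had a median ratio of 0.999, with lists from 0.782 to 1.23, and the first of chromosome 20 had 0.886, with lists from 0.678 to 1.1. Weak peaks differed little in width, with medians of 100 to 117 bp on chromosome 7 and 100 to 121 bp on chromosome 20, against 100 to 118 bp elsewhere.

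The leading constitutive site of each block, taken as the one whose smallest area over the 7 lists was largest, gave a point of comparison inside the blocks. In the first block of chromosome 7 it was chr7:5629616-5639755, 10140 bp wide, with areas of 30911 in EV, 23302 in TAZ4SA, 36348 in YAP5SA, 44108 in CAMTA1, 27244 in TFE3, 48276 in TAZ-CAMTA1 and 48828 in YAP-TFE3. In the sparsest block, the sixth, it was chr7:87504968-87506760, with areas of 11200 in EV, 11007 in TAZ4SA, 13380 in YAP5SA, 15945 in CAMTA1, 8533 in TFE3, 14932 in TAZ-CAMTA1 and 17726 in YAP-TFE3. Areas were not scaled between lists. On the other autosomes the median area of constitutive sites was 181 in TAZ4SA, 267 in EV, 379 in TFE3, 1121 in YAP-TFE3 and 1340 in TAZ-CAMTA1. In both of these blocks, and in most others, the leading site had its smallest area in TAZ4SA or TFE3 and its largest in YAP-TFE3.

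The fourth block of chromosome 7 departed from this order, with TAZ4SA the highest list, and in the third TAZ-CAMTA1, at 28215, was just above YAP-TFE3, at 28170. The leading site of the fourth, chr7:61967106-61971384, near the centromere, had an area of 85597 in TAZ4SA, 78902 in EV, 76783 in YAP5SA, 66856 in CAMTA1, 64022 in TAZ-CAMTA1, 59796 in YAP-TFE3 and 35641 in TFE3, with summits of 29.8 to 52.4. It was the largest of the 12 leading sites in every list.

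On chromosome 20 the leading sites were chr20:303825-309099 in the first block, with areas of 16238 (TFE3) to 37376 (YAP-TFE3), chr20:10651639-10656300 in the second, with 8860 (TAZ4SA) to 27179 (YAP-TFE3), and chr20:25289167-25292802 in the third, with 13409 (TAZ4SA) to 28708 (YAP-TFE3). The leading site of the second block, where weak peaks were least dense, had a smaller area than that of the third in every list. The areas were close in YAP-TFE3 and in TAZ-CAMTA1 (24410 against 25563). They were further apart in TAZ4SA and in YAP5SA (14194 against 21040).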

How the data were processed

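Chromatin accessibility was measured by ATAC-seq in 20 libraries of SW872 cells carrying 7 vectors. Per the study's methods, NGmerge removed adapters, BWA-MEM mapped the reads to hg19, and Genrich in its ATAC-seq mode called peaks after dropping PCR duplicates, artefact regions and the mitochondrial genome. Peaks are said to have been called on each replicate; how the single list per vector arose is not given in the sources used here. The submitters' processing notes name mm8 and Bowtie 0.12.2 instead; peak positions in the lists lie within human hg19 chromosomes. The lists as deposited by the authors hold for each peak a signal (the area under the −log10 p curve, 20 or more), a −log10 p at the summit and another value, the distance from the peak start to the summit. No read counts were used here, so the depth of the libraries is unknown.

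From these lists, peaks were counted per 1-Mb bin by summit. Bins with no peak in any list and the last bin of each chromosome were left out. The profile was split by optimal partitioning with at least 5 bins a block and a penalty of 4 times the noise variance times the natural log of the number of bins, and blocks were merged until every step was at least 1.5-fold. Sites were merged peaks that overlapped by 1 bp or more. Shares carry 95% Wilson intervals. The partition was tested on simulated profiles. No test between vectors was possible with 1 list each. Blocks, step positions, the 3 densest and 3 emptiest bins of each chromosome and the leading constitutive site of each block were the regions named. The members, lists and measures were chosen with earlier results of these data known. The reference at hand was of another build, so no gene was assigned and no sequence printed. Alternatives were other thresholds, bin sizes, smallest steps, covered bases, equal list sizes, weak peaks per strong peak and each list left out. Python 3.11.15, numpy 2.4.6, pandas 2.3.3, scipy 1.17.1 and matplotlib 3.10.9 were used.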

Additional observations from a re-analysis of the deposited data

How the results depend on the processing

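Of 97 values recomputed for 7 results, 71 stayed within the counting error (for counts, within 1.5 times), 26 moved and none reversed. The weak-peak density of chromosome 7 over the other autosomes was 1.41 and became 1.57 with 2-Mb bins, 1.31 with equal numbers of peaks per list (152702) and 1.21 as weak peaks per strong peak; without each list in turn it was 1.37 to 1.42. That of chromosome 20 was 3.03 and became 3.25 with weak peaks under 4, 2.83 under 6, 2.88 with 500-kb bins, 2.84 with 2-Mb bins, 3.20 by bases covered, 2.71 with equal numbers of peaks and 1.26 per strong peak; without each list in turn it was 2.96 to 3.08.

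The number of steps on chromosome 7 was 8 and became 1 per strong peak. It was 11 with 500-kb bins and 10 by bases covered, both within 1.5 times, and without each list in turn it stayed at 8. On chromosome 20 it was 2 and became 7 with 500-kb bins, 0 with 2-Mb bins and 0 per strong peak; without each list in turn it stayed at 2. A block holds at least 5 bins, so with 2-Mb bins the first block of chromosome 20 is too short to be found. Why the rise at 17 Mb was also lost was not tested. The largest step on chromosome 7 was 16.3-fold and became 13.4-fold with 500-kb bins, 36.0-fold by bases covered and 1.54-fold per strong peak; without each list in turn it was 15.7-fold to 18.0-fold. The largest on chromosome 20 was 4.31-fold and became 18.3-fold with 500-kb bins, at 16.5 Mb, and 13.1-fold by bases covered, at 17 Mb; without each list in turn it was 4.08-fold to 4.60-fold, and per strong peak and with 2-Mb bins there was none. The bins of both chromosomes that differed from EV, summed over the 6 lists, were 249 of 1302 (19.1%, against 26.2% over all autosomal bins). They became 401 with weak peaks under 4 (30.8%), 651 with 500-kb bins (25.5%), 93 with 2-Mb bins (14.1%) and 85 at 2-fold (6.53%). With equal numbers of peaks per list they were 350 (26.9%), within 1.5 times. The share over all autosomal bins was not computed at these other settings, so these percentages cannot be set against the 26.2%. Other causes of these changes were not tested.

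No paired analysis was possible because there is 1 list per vector with no value per library; for the same reason, leaving out single libraries and a replicate block were not run. In the sparse blocks of chromosome 7 a list holds 70 to 419 weak peaks.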
